A study of Bos taurus with 16 samples.

Results

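The response of superficial zone articular chondrocytes to TGF-β2 was examined in cells carrying an shRNA against Creb5, in the 8 of 16 libraries of the series that came from shCreb5 cells: 4 libraries of condition AB, with TGF-β2, against 4 of condition A, without it, paired by calf. The chondrocytes came from the knees of 4 calves aged 1 to 2 weeks, were infected with lentivirus encoding a scrambled control shRNA (shScramble) or a single shRNA against Creb5 (shCreb5), and were selected as pools in 0.8 µg/ml puromycin for 5 days. They were then replated on low attachment plates in medium with 10% serum for 48 h in TGFα at 100 ng/ml, without further factor in condition A and with TGF-β2 at 20 ng/ml added in condition AB. TGFα, the serum, the lentivirus and the puromycin were therefore common to both groups, and TGF-β2 was what differed. Each calf gave 1 library per shRNA and condition. The 4 shScramble pairs from the same calves serve below for comparison.

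TGF-β2 is a secreted ligand that is held in the matrix by latent TGF-β binding proteins and signals through paired serine/threonine kinase receptors to SMAD2 and SMAD3, which enter the nucleus and regulate transcription. In articular cartilage this pathway is known for its part in maintaining matrix synthesis and the lubricin-producing cells of the surface. Creb5 is a bZIP transcription factor of the superficial zone that is known to act together with TGF-β and EGFR signaling on PRG4, which encodes lubricin.

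Between 16736143 and 21853634 counts were assigned to genes in each of the 8 libraries. Levels are given as CPM, the counts of a gene divided by the library total and expressed per 1000000, after scaling of the totals with TMM factors, and in each list of 4 values the calves stand in the order 1 to 4. Called genes are those with an adjusted p under 0.05 in edgeR's quasi-likelihood test, fitted with a term for each calf, and standard errors (SE) are on the log2 scale. The gene identifiers were matched to a symbol for 3157 of 19454 genes, through lines at the top of lists sorted by the effect of the knockdown, and 3073 of the genes with a symbol were tested. COL2A1, ACAN and SOX9, which define chondrocytes, had no symbol and were not analysed here. The chondrocyte markers with a symbol were HAPLN1 and PRG4. Their summed level, per library total without TMM scaling, was 8190.0 to 14194.2 CPM in condition A and 12529.8 to 50642.6 CPM in condition AB.

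CREB5 (ENSBTAG00000018909), the target of the shRNA, was lower in shCreb5 than in shScramble cells in each calf and condition. On a scale common to all 16 libraries, shScramble cells had 124, 71.5, 77.8 and 105 CPM of CREB5 in condition A, against 86.1, 44.7, 57.7 and 72.6 CPM in shCreb5 cells. In condition AB the values were 83.1, 59.0, 62.7 and 78.7 CPM with shScramble and 43.0, 36.2, 31.1 and 34.9 CPM with shCreb5. The highest shCreb5 value with TGF-β2 thus lay under the lowest without it. In the fit of the shCreb5 libraries, CREB5 fell by 0.82 on the log2 scale with TGF-β2 (SE 0.13, adjusted p = 0.0036). CREB5 transcripts were reduced and not absent, so the comparison concerns cells with less CREB5, and the cells with TGF-β2 had less of it than those without.

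TGF-β2 changed the expression of 3884 of the 12769 genes tested in shCreb5 cells, or 30.4%. Of these, 2027 genes (15.9% of those tested) were higher and 1857 (14.5%) were lower with TGF-β2. Genes with a symbol were called more often, at 45.6%, with 25.7% higher and 19.9% lower. The counts for the gene lists below stand beside these shares as descriptions. Members and lists were chosen with earlier results of these data known, so their counts carry no test. Most changes were small: the median log2 fold change was 0.63 among genes called higher and -0.66 among genes called lower. A change of at least 1 on the log2 scale was reached by 564 genes that rose (4.42%) and 497 that fell (3.89%), a change of at least 2 by 154 and 97, and a change of at least 3 by 33 and 15. Among the called genes, 3788 moved in the same direction in 4 of 4 calves, which 49.3% of all genes tested did. The 4 values with TGF-β2 lay above all 4 values without it for 698 of the genes called higher and below them for 589 of those called lower, where 6.07% and 5.53% of all genes tested showed such a separation. Between 922 and 1862 genes were called lower, and 1040 to 1967 higher, when 1 calf was left out. The lowest counts were those without calf 4, the counts without calf 3 were 1192 higher and 1216 lower, and those without calf 1 were 1377 higher and 1236 lower.

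**Figure D1:**
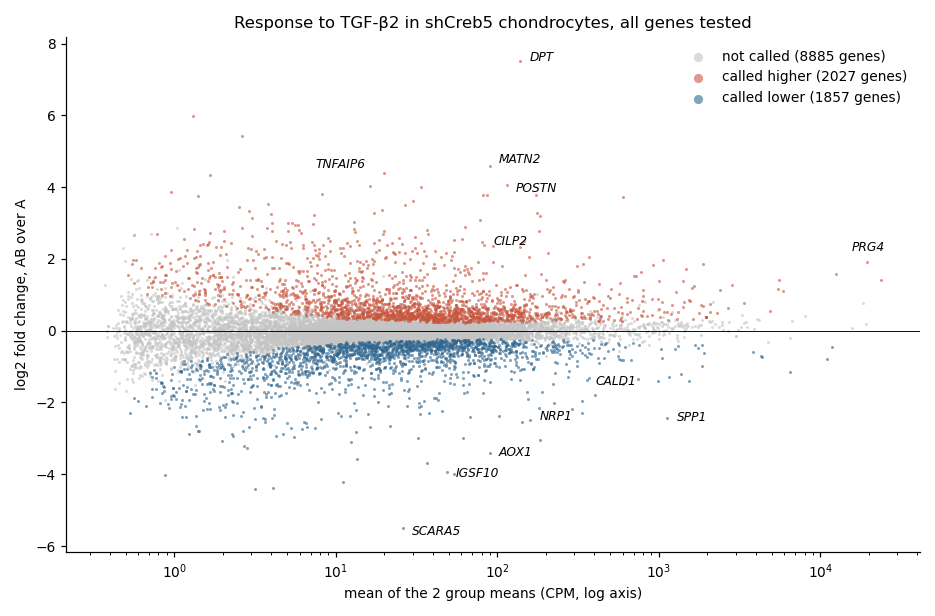
Each point is 1 of the 12769 genes tested in shCreb5 chondrocytes, with the mean of its group means (CPM, log axis) on the horizontal axis and its log2 fold change (AB over A) on the vertical axis. Red points are the 2027 genes called higher with TGF-β2, blue points the 1857 called lower and grey points those not called, and named genes are labelled, from DPT at 7.53 to SCARA5 at -5.51.

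The 15 rising genes named for the size of their change had log2 fold changes from 2.83 to 7.53. Several of them, DPT, MATN2, TNFAIP6, POSTN, ADAMTSL2, TGFBI and CTHRC1, encode secreted matrix or matrix-associated proteins. DPT (ENSBTAG00000021211) encodes dermatopontin, a small proteoglycan-binding protein of the matrix, and had 1.26, 0.745, 2.80 and 0.810 CPM in condition A and 178, 60.7, 460.0 and 406 CPM in condition AB. Every library with TGF-β2 was thus far above every library without it, and the lowest of them was that of calf 2. The log2 fold change of DPT was 7.53 (SE 0.33, adjusted p = 6.14e-05), the largest of the genes named.

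MATN2 (ENSBTAG00000017165), which encodes matrilin-2, an adaptor protein of filamentous matrix networks, rose from 5.81, 10.1, 5.05 and 7.69 CPM to 155, 156, 128 and 252 CPM. The calves were close to each other in both conditions, and its log2 fold change was 4.59 (SE 0.18, adjusted p = 4.31e-05). POSTN (ENSBTAG00000012409), which encodes the matricellular protein periostin, had 9.96, 2.003, 13.7 and 25.6 CPM without TGF-β2 and 193, 25.8, 293 and 351 CPM with it. Calf 2 was the lowest in both conditions, yet the groups did not overlap and the fold was similar in all 4 calves, with log2 ratios from 3.62 to 4.41 and a log2 fold change of 4.07 (SE 0.15, adjusted p = 4.31e-05). TGFBI (ENSBTAG00000009513), named for its induction by TGF-β and encoding a collagen-binding matrix protein, stood at 7.17, 6.24, 5.81 and 7.24 CPM in condition A and at 50.9, 29.0, 96.5 and 449 CPM in condition AB. The values without TGF-β2 were nearly equal, whereas those with it were spread widely, with calf 4 far above the rest. Its log2 fold change was 3.77 (SE 0.57, adjusted p = 0.00321), or 3.03 without calf 4.

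TNFAIP6 (ENSBTAG00000007239) encodes TSG-6, which binds hyaluronan and has anti-inflammatory activity, and rose from 0.856, 2.47, 2.58 and 0.720 CPM to 31.9, 12.1, 68.3 and 40.8 CPM. The rise was smallest in calf 2, and the log2 fold change was 4.41 (SE 0.49, adjusted p = 0.00119), or 5.16 without that calf. CTHRC1 (log2 fold change 3.77), a secreted protein with a short collagen repeat, ADAMTSL2 (3.80), a fibrillin-binding glycoprotein, and GLDN (2.83), an olfactomedin-domain protein, also rose in 4 of 4 calves. The log2 fold change of CTHRC1 was 4.53 and that of ADAMTSL2 4.55 without calf 2. The others of the 15 were MYH15 (4.05), a myosin heavy chain, RIMS2 (3.99, or 4.59 without calf 2), a scaffold of regulated exocytosis, RASL11B (3.22), a small GTPase, WIF1 (3.08), PENK (2.97), the enkephalin precursor, IGSF9B (2.94), an immunoglobulin superfamily adhesion protein, and SCG2, a granin of secretory granules. SCG2 (ENSBTAG00000021588) differed most between calves, with 0.0451, 142, 2.80 and 0.765 CPM without TGF-β2 and 27.8, 1188, 18.9 and 17.9 CPM with it. In calf 1 the value without TGF-β2 was a single count, and calf 2 was far above the other calves in both conditions. SCG2 rose in 4 of 4 calves, by 3.78 on the log2 scale (SE 0.52, adjusted p = 0.00237).

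Within the TGF-β pathway, the ligands and latent proteins were tested for 8 of 15 listed genes, of which 1 rose and 3 fell. TGFB3 (ENSBTAG00000012004), a ligand, had 91.5, 84.5, 74.5 and 76.4 CPM in condition A and 62.4, 39.2, 51.4 and 53.1 CPM in condition AB. All values with TGF-β2 were below those without it, and the log2 fold change was -0.68 (SE 0.11, adjusted p = 0.00465). TGFB2, the transcript of the added ligand, changed by -0.80 (adjusted p = 0.0326), but it was lower in 3 of 4 calves only and its adjusted p was 0.119, 0.0831 and 0.0661 without calf 1, 2 or 3. LTBP1, a latent TGF-β binding protein, changed by -0.41 (adjusted p = 0.0136, or 0.0672 without calf 3), so that the count of falling genes was 1 without that calf. THBS1, which encodes thrombospondin-1, an activator of latent TGF-β, was not called (0.83, adjusted p = 0.145), but was called higher without calf 3 (1.35, adjusted p = 0.00617), which made 2 rising genes. LTBP2 (ENSBTAG00000021957), a fibrillin-binding member of the same family, went the other way, from 162, 143, 65.0 and 138 CPM to 316, 202, 245 and 348 CPM. Its lowest value with TGF-β2 was above its highest without it, and its log2 fold change was 1.17 (SE 0.21, adjusted p = 0.00539).

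Among the receptors, 4 of 12 listed genes were tested, of which 2 rose and 1 fell. TGFBR3 (ENSBTAG00000024269), the betaglycan co-receptor that presents TGF-β2 to the signaling receptors, fell from 559, 399, 608 and 633 CPM to 299, 218, 432 and 261 CPM. It was lower in 4 of 4 calves, although the groups overlapped because calf 3 stayed high, and the log2 fold change was -0.89 (SE 0.13, adjusted p = 0.00275). The rises of TGFBR1 (0.38, adjusted p = 0.0263) and BMPR1A (0.32, adjusted p = 0.0195), both type I receptors, were small. Neither passed without calf 3 or 4, with adjusted p from 0.0886 to 0.114, nor TGFBR1 without calf 1 (0.0964), so that 0 receptors were called higher without calf 3 or calf 4 and 1 without calf 1. SMAD3 and SMAD4, the SMAD genes with a symbol, were not called, with 0 of 2 past the threshold.

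Genes that restrain TGF-β signaling rose: 4 of the 5 tested of 12 listed were called higher and none lower, with a median log2 fold change of 0.50, against -0.01 over all genes tested. SKIL (ENSBTAG00000004154), a SMAD-binding co-repressor that the pathway is known to induce, rose from 22.4, 20.2, 26.4 and 28.2 CPM to 50.9, 57.6, 51.5 and 56.8 CPM. The 4 calves had nearly the same level in each condition, and the log2 fold change was 1.17 (SE 0.11, adjusted p = 0.000647). TGIF1, a homeodomain co-repressor of SMAD2, rose by 0.76 (adjusted p = 0.00129), and SMURF2, a ubiquitin ligase acting on receptors and SMADs, by 0.50 (adjusted p = 0.00299). SKI, a further co-repressor, was called at 0.25 (adjusted p = 0.0468) but not when any 1 calf was left out, with adjusted p from 0.0864 to 0.146. The list thus held fewer rising genes in each of those fits. LDLRAD4, the gene not called, changed by -0.15 (adjusted p = 0.462) and was lower in 2 of 4 calves.

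Ligands and antagonists of the related BMP branch moved in both directions, with 3 rising and 3 falling of 7 tested genes out of 19 listed. BMP6 (ENSBTAG00000019234), a BMP ligand, had 1.44, 9.08, 3.55 and 1.98 CPM without TGF-β2 and 19.8, 21.97, 16.03 and 11.1 CPM with it, a log2 fold change of 2.32 (SE 0.34, adjusted p = 0.00288). The groups did not overlap, and calf 2, the highest without TGF-β2, had the smallest ratio. CHRD, the extracellular BMP antagonist chordin, rose by 1.88 (adjusted p = 0.00062), and GDF5, a joint interzone ligand, rose from 14.7, 24.3, 4.57 and 9.22 CPM to 54.4, 95.7, 11.6 and 16.8 CPM. GDF10 (ENSBTAG00000001019), a ligand of the BMP3 subgroup, fell from 584, 202, 157 and 249 CPM to 134, 44.1, 59.4 and 31.9 CPM. Its values with TGF-β2 were all lower than those without it, with a log2 fold change of -2.17 (SE 0.22, adjusted p = 0.000884). CHRDL2, a chordin-like antagonist, fell by 2.23 on the log2 scale (adjusted p = 0.00228). CHRDL1 was called at -1.31 (adjusted p = 0.0272), but had an adjusted p of 0.0812 and a log2 fold change of -0.80 without calf 2, and an adjusted p of 0.106 without calf 4. Among the BMP target genes, 3 of 8 were tested (ID2, ID3 and DLX5) and none was called, where 0 had an unadjusted p under 0.05 by edgeR and DESeq2 called 0.

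**Figure D2:**
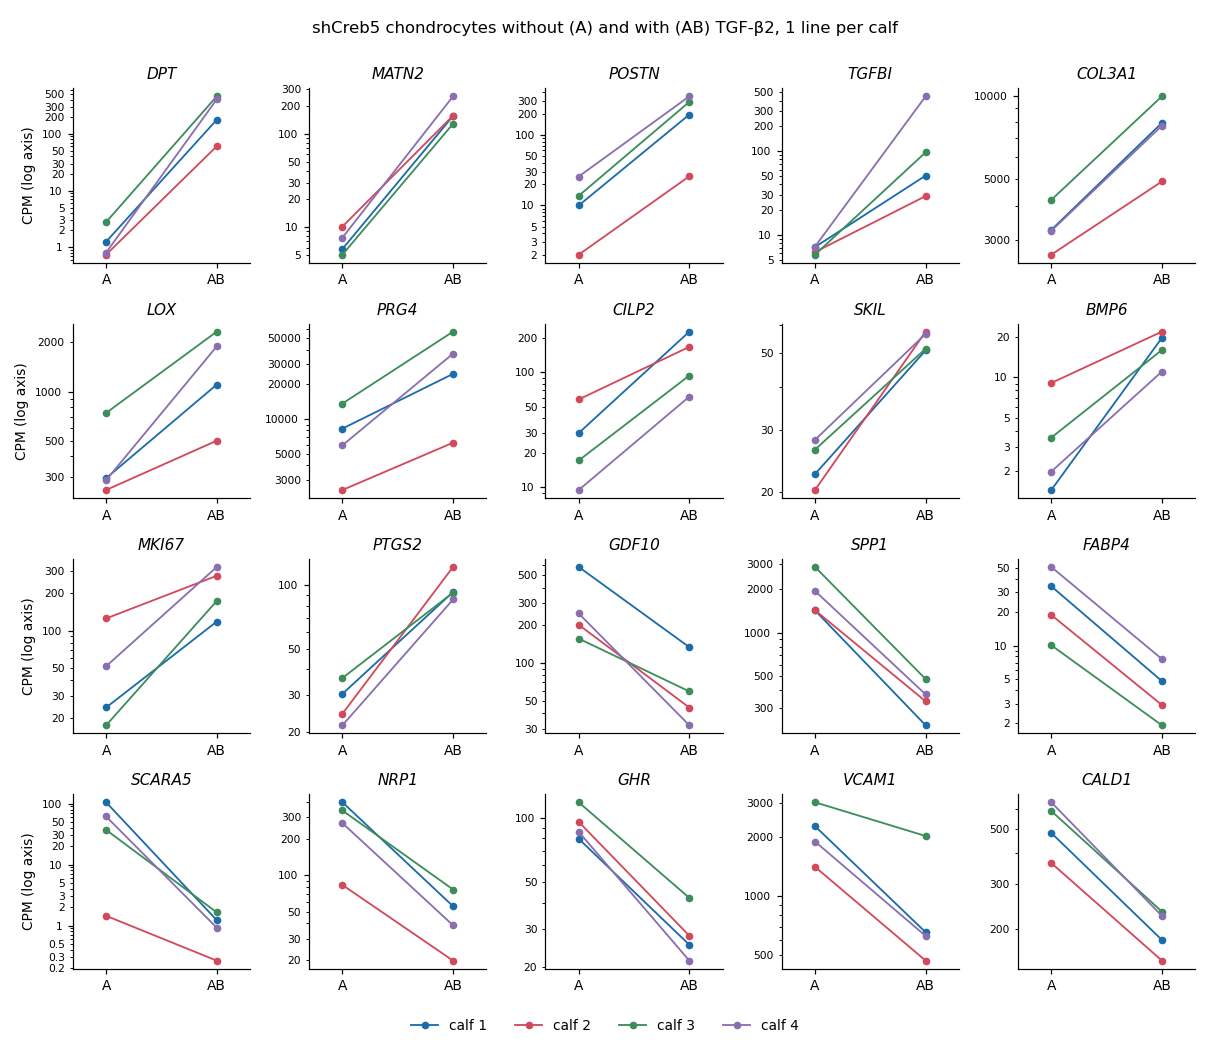
CPM (log axis) of 20 genes in condition A (left) and condition AB (right) of shCreb5 chondrocytes, with 1 point per library and a line joining the libraries of 1 calf. The lines run in the same direction in all 4 calves for each gene shown, and calf 2 is the lowest in both conditions for POSTN, PRG4 and NRP1 and starts at 1.44 CPM for SCARA5 where the other calves start at 37.1 to 105.

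Fibrillar collagen chains and enzymes of collagen processing were among the genes that rose. Of the 12 tested genes among 23 TGF-β target and fibrillar matrix genes, 5 rose (TGFBI, POSTN, COL3A1, COL5A1 and COL5A2), 1 fell and 6 were not called. COL3A1 (ENSBTAG00000021466), the chain of type III collagen, had 3267, 2659.6, 4197 and 3244 CPM in condition A and 7969, 4892, 9941 and 7783 CPM in condition AB. The groups did not overlap, and the log2 fold change was 1.17 (SE 0.12, adjusted p = 0.000823). COL5A1 (ENSBTAG00000047998), a chain of type V collagen, which nucleates collagen fibrils, rose from 444, 465, 306 and 291 CPM to 1621, 1068, 986 and 1001 CPM, and COL5A2, its partner chain, rose by 1.71 (adjusted p = 0.000326). The log2 fold change of COL5A1 was 1.63 (SE 0.13, adjusted p = 0.000358).

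The gene that fell was TNC, which encodes the matricellular protein tenascin-C, with a log2 fold change of -0.79 (SE 0.16, adjusted p = 0.00854) and a lower value in 4 of 4 calves. CCN2, which encodes connective tissue growth factor, was not called, at 0.40 (adjusted p = 0.174).

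Genes for collagen processing and cross-linking were called higher in 12 of the 12 tested, out of 23 listed, with a median log2 fold change of 0.83. PLOD2 (ENSBTAG00000007331), the telopeptide lysyl hydroxylase, rose from 312, 478, 357 and 320.4 CPM to 995, 938, 1003 and 1225 CPM. The 2 groups were well apart, with a log2 fold change of 1.52 (SE 0.16, adjusted p = 0.000884). LOX (ENSBTAG00000012994), the lysyl oxidase that starts collagen and elastin cross-linking, had 294, 249, 739 and 286 CPM in condition A and 1103, 499, 2332 and 1894 CPM in condition AB, a log2 fold change of 1.82 (SE 0.25, adjusted p = 0.0022). Calf 3 was high and calf 2 low in both conditions, so that the groups overlapped although each calf rose.

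The prolyl hydroxylase subunits P4HA1 (0.79), P4HA3 (1.14) and P4HB (0.71) rose, as did the lysyl hydroxylase PLOD1 (0.56) and the related oxidase LOXL3 (0.83). So did SERPINH1 (0.83), the collagen chaperone HSP47, the prolyl isomerases FKBP10 (0.54) and FKBP14 (1.04), and ADAMTS2 (0.66), which removes the amino-terminal propeptide of procollagen. Their adjusted p-values lay between 0.00183 and 0.0103, and each was higher in 4 of 4 calves. TGM2, a transglutaminase, was called at 0.92 (adjusted p = 0.031) but fell in calf 1, and its adjusted p was 0.0704, 0.128 and 0.129 without calf 2, 3 or 4.

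**Figure D3:**
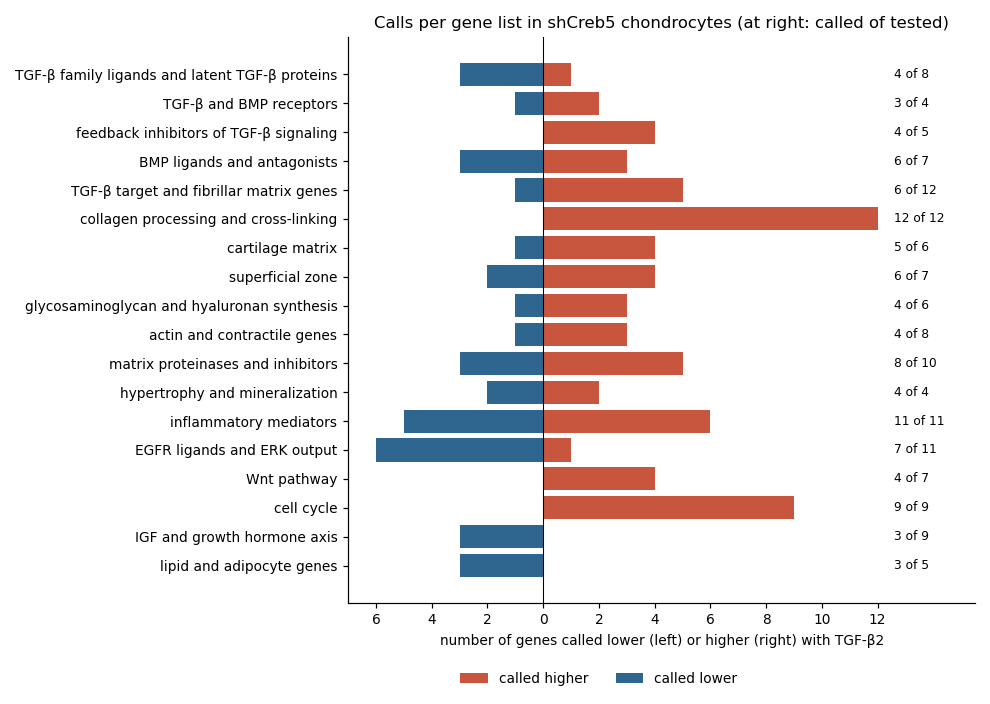
Number of genes called higher (red, to the right) and lower (blue, to the left) with TGF-β2 in shCreb5 chondrocytes, for each list with at least 4 genes tested, with the number called of the number tested at the right. Collagen processing (12 of 12) and the cell cycle (9 of 9) lie wholly to the right, while inflammatory mediators are divided into 6 higher and 5 lower.

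Matrix proteinases and their inhibitors were tested for 10 of 20 genes, of which 5 rose and 3 fell. ADAMTS6 (ENSBTAG00000016963), a fibrillin-associated proteinase, rose from 5.72, 1.63, 4.79 and 5.26 CPM to 17.3, 8.17, 22.1 and 24.9 CPM, with no overlap and a log2 fold change of 2.07 (SE 0.15, adjusted p = 0.000282). HTRA1, a secreted serine proteinase, rose in each calf, by log2 ratios from 0.90 to 1.48, from 321, 259, 855 and 506 CPM to 649, 484, 1864 and 1416 CPM. The aggrecanase ADAMTS4 (1.41), the versican-cleaving ADAMTS9 (1.3) and the membrane proteinase ADAM12 (1.40) also rose, each with no overlap between the groups.

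In contrast, MMP1 (ENSBTAG00000048029), the interstitial collagenase, had 43.0, 18.2, 101 and 36.1 CPM without TGF-β2 and 10.0, 14.2, 14.5 and 19.3 CPM with it. The 4 values with TGF-β2 were closer together than those without it, and the log2 fold change was -1.54 (SE 0.37, adjusted p = 0.0178, or 0.0716 without calf 1). MMP2, a gelatinase, fell by 0.75 (adjusted p = 0.00693), and TIMP2, which inhibits metalloproteinases, was called at -0.41 (adjusted p = 0.0498) but not without calf 1, 2 or 4, with adjusted p from 0.0864 to 0.186. Without calf 1, the count of falling genes in the list was therefore 1.

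Cartilage matrix genes were tested for 6 of 22 listed, of which 4 rose and 1 fell, with a median log2 fold change of 1.18. CILP2 (ENSBTAG00000014969), a cartilage intermediate layer protein, rose from 29.7, 58.3, 17.1 and 9.49 CPM to 227, 167, 94.1 and 61.7 CPM. Each value with TGF-β2 exceeded every value without it, and the log2 fold change was 2.39 (SE 0.22, adjusted p = 0.000642). CHAD (ENSBTAG00000021302), which encodes the collagen-binding chondroadherin, rose from 4.19, 30.0, 2.63 and 1.98 CPM to 27.3, 95.3, 12.7 and 8.85 CPM, by 2.16 on the log2 scale (SE 0.17, adjusted p = 0.000415).

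COL11A1 (ENSBTAG00000021217), a chain of the type XI collagen of cartilage fibrils, had 2579.6, 12394, 893 and 1878 CPM in condition A and 8716, 14731, 2333 and 3817 CPM in condition AB, a log2 fold change of 1.11 (SE 0.23, adjusted p = 0.0101). MATN1 (ENSBTAG00000003479), matrilin-1 of epiphyseal cartilage, rose by 1.26 (adjusted p = 0.00465), from 3.79, 46.3, 0.323 and 1.48 CPM to 12.4, 117, 0.754 and 1.72 CPM, but was not called in 1 fit of all 16 libraries. For CHAD, COL11A1 and MATN1 calf 2 was the highest in both conditions, and the difference between calves exceeded the change with TGF-β2. MATN4 (ENSBTAG00000011279), which encodes matrilin-4, was the member that fell, from 23.4, 58.5, 3.44 and 13.6 CPM to 2.56, 22.6, 1.23 and 1.17 CPM. Its log2 fold change was -2.31 (SE 0.36, adjusted p = 0.00354), or -2.91 without calf 2. HAPLN1, the link protein that stabilises aggrecan on hyaluronan, was not called (0.45, adjusted p = 0.0713), although DESeq2 and limma-voom called it. Without calf 2 it was called higher (0.66, adjusted p = 0.00384).

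Of the superficial zone genes, 7 of 10 were tested, of which 4 rose (DPT, WIF1, PRG4 and GDF5) and 2 fell (CREB5 and CLU). PRG4 (ENSBTAG00000011932), which encodes the joint lubricant lubricin, rose from 8294, 2439.6, 13666 and 5945 CPM to 24703, 6266, 57332 and 36974 CPM. Calf 2 was the lowest in both conditions, its value with TGF-β2 lay within the range of the other calves without it, and the log2 fold change was 1.91 (SE 0.22, adjusted p = 0.00126). WIF1 (ENSBTAG00000014758), a secreted inhibitor that binds Wnt ligands, rose from 36.5, 38.3, 2.47 and 8.55 CPM to 206, 123.4, 57.1 and 156 CPM (log2 fold change 3.08, SE 0.45, adjusted p = 0.0027). CLU, the extracellular chaperone clusterin, fell from 8383, 3175, 6013 and 4303 CPM to 4619, 2462, 3886 and 2082 CPM (log2 fold change -0.73, adjusted p = 0.00653). Thus PRG4 rose and CREB5 fell with TGF-β2 in 4 of 4 calves each.

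Among enzymes of hyaluronan and glycosaminoglycan synthesis, 6 of 24 were tested, of which 3 rose and 1 was called lower. HAS2 (ENSBTAG00000019892), a hyaluronan synthase, had 3.29, 28.4, 2.10 and 2.83 CPM without TGF-β2 and 24.04, 43.7, 13.2 and 24.7 CPM with it. Calf 2 was already high without TGF-β2 and rose least, and the log2 fold change was 2.20 (SE 0.40, adjusted p = 0.00643), or 2.89 without calf 2. The chondroitin sulfate enzymes CHSY1 (1.17, adjusted p = 0.00183) and CSGALNACT2 (0.82, adjusted p = 0.00362) rose, with no overlap of the groups. NDST1, of heparan sulfate synthesis, was called at -0.40 (adjusted p = 0.0296), but not without calf 1, 3 or 4 (adjusted p from 0.079 to 0.121), so that none of the list was called lower without those calves. UGP2 was not called (0.18, adjusted p = 0.351), but was called higher without calf 2 (0.35, adjusted p = 0.0379).

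Cytoskeletal genes did not move together. Of 8 tested actin and contractile genes out of 16, 3 rose and 1 fell, with a median log2 fold change of 0.06. TAGLN, the smooth muscle protein transgelin, rose by 1.14 (adjusted p = 0.00666) and the tropomyosin gene TPM4 by 0.61 (adjusted p = 0.0086), while TPM1 was called at 0.46 (adjusted p = 0.0212) with adjusted p of 0.0812 and 0.0847 without calf 1 or 4. CALD1 (ENSBTAG00000013953), which encodes the actin-binding caldesmon, was the one that fell, from 481, 365, 588 and 637 CPM to 180.3, 149, 234 and 225 CPM. Its calves moved almost alike, with log2 ratios from -1.50 to -1.29 and a log2 fold change of -1.39 (SE 0.09, adjusted p = 0.000203). Of the YAP/TAZ targets 2 of 12 were tested, CCN2 and F3, and none was called by edgeR, where 0 had an unadjusted p under 0.05 and DESeq2 called 0. Without calf 3 both were called higher, 2 of 2.

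Hypertrophy and mineralization genes were tested for 4 of 16. SPP1 (ENSBTAG00000005260), the mineral-binding phosphoprotein osteopontin, fell from 1426, 1429.5, 2855 and 1946 CPM to 227, 333, 475 and 372 CPM. The 2 groups were separated by a wide gap, and the log2 fold change was -2.43 (SE 0.12, adjusted p = 0.000108). MGP, which encodes the calcification inhibitor matrix Gla protein, rose by 0.86 (adjusted p = 0.00302). ENPP1, which makes pyrophosphate, was called at 0.97 (adjusted p = 0.0206) and ANKH, which exports it, at -0.37 (adjusted p = 0.047), but ENPP1 was lost without calf 1, 3 or 4 (0.0599 to 0.0749) and ANKH did not pass without any 1 calf (0.0628 to 0.161). Without those calves the list held 1 rising and, without any calf, 1 falling gene.

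Inflammatory mediators were called in 11 of 11 tested genes out of 20, of which 6 rose and 5 fell. PTGS2 (ENSBTAG00000014127), the inducible cyclooxygenase, rose from 30.5, 24.5, 36.2 and 21.6 CPM to 92.9, 122, 92.3 and 85.6 CPM. Every value with TGF-β2 was more than 2 times the highest without it, and the log2 fold change was 1.81 (SE 0.16, adjusted p = 0.000498). LIF (ENSBTAG00000007424), a cytokine of the IL-6 family, rose from 0.451, 0.978, 2.85 and 1.12 CPM to 6.29, 4.67, 12.1 and 11.9 CPM (log2 fold change 2.79, SE 0.30, adjusted p = 0.00101). CCL2 (ENSBTAG00000037811), a monocyte chemokine, rose from 2.25, 0.792, 0.215 and 0.675 CPM to 10.5, 4.88, 4.25 and 6.33 CPM (log2 fold change 2.85, SE 0.30, adjusted p = 0.000918). Both were low without TGF-β2, and their groups did not overlap. NOS2, the inducible nitric oxide synthase, also rose (1.38, adjusted p = 0.00305), though it missed the threshold in 1 fit of all 16 libraries, and IL6 was called at 0.98 (adjusted p = 0.047) but not without calf 1, 3 or 4 (adjusted p from 0.0845 to 0.17).

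The falling mediators were adhesion molecules and a chemokine, among others. VCAM1 (ENSBTAG00000007773), a ligand of leukocyte integrins, had 2277, 1412, 3014 and 1900.5 CPM in condition A and 654, 469, 2028 and 627 CPM in condition AB. Calf 3 stayed high with TGF-β2, and the log2 fold change was -1.39 (SE 0.20, adjusted p = 0.00259). ICAM1 (ENSBTAG00000010303), a second such ligand, fell from 77.6, 22.4, 90.7 and 69.1 CPM to 26.3, 15.2, 16.4 and 8.79 CPM (log2 fold change -1.88, SE 0.35, adjusted p = 0.0066). CCL20, a chemokine, fell by 1.72 (adjusted p = 0.00287) and SOD2, the mitochondrial superoxide dismutase, by 0.80 (adjusted p = 0.00226), while PTGES, which makes prostaglandin E2, was called at -0.41 (adjusted p = 0.0335) but not without calf 2, 3 or 4 (0.0766 to 0.128).

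Of 8 markers of other cell types that were tested, CD68, VWF and KRT18 were called, all lower, and 5 were not called. Of the leukocyte and macrophage markers, 2 of 5 had a symbol, CD68 and CD14, and neither was at 0. Their summed level, per library total without TMM scaling, was 23.3 to 89.2 CPM in condition A and 12.3 to 25.6 CPM in condition AB. The summed levels of the endothelial and epithelial markers and the ranges of MKX and DMP1 are given in the same way. CD68 (ENSBTAG00000000133), a lysosomal protein abundant in macrophages, fell from 4.19, 4.38, 71.2 and 16.4 CPM to 1.11, 3.24, 14.9 and 3.32 CPM (log2 fold change -1.80, adjusted p = 0.00423). CD14, a co-receptor for lipopolysaccharide, was not called (-0.38, adjusted p = 0.122, or 0.0221 without calf 2, lower in 3 of 4 calves). Of the endothelial markers, 2 of 5 had a symbol, VWF and TEK, with a summed level of 12.3 to 22.7 CPM in condition A and 6.51 to 9.33 CPM in condition AB. VWF (ENSBTAG00000012265), von Willebrand factor, fell from 10.2, 11.4, 19.4 and 8.28 CPM to 4.40, 4.99, 3.77 and 2.52 CPM (log2 fold change -1.60, adjusted p = 0.00201). TEK, the angiopoietin receptor, had a log2 fold change in the other direction, 0.51 (adjusted p = 0.0884), with a higher value in 4 of 4 calves, and was not called. Of the epithelial markers, KRT18 and CDH1 (2 of 4) together had 0.778 to 21.0 CPM in condition A, the highest in calf 3, and 0.148 to 2.50 CPM in condition AB, and KRT18 was at 0 in calf 2 with TGF-β2. KRT18, a keratin, was called at -2.40 (adjusted p = 0.0286), but not without calf 3 or 4 (0.138 and 0.0894), and its log2 fold change was -4.06 without calf 1, while CDH1 was not called (-1.75, adjusted p = 0.0602, or 0.0232 and 0.0443 without calf 1 or 2). The tendon marker MKX (1 of 3 listed) had 16.5 to 24.9 CPM in condition A and 14.2 to 20.5 CPM in condition AB, and the osteoblast marker DMP1 (1 of 4) 8.83 to 14.96 and 7.35 to 15.2 CPM, with log2 fold changes of 0.06 and -0.12 that were not called. The part of such cells in the changes of the mediators was not tested, and in these bulk libraries fewer cells of a type and less RNA per cell cannot be told apart.

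Ligands of EGFR, the receptor of the TGFα present in both conditions, and output genes of ERK signaling were tested for 11 of 24 listed genes. Of these, 6 were called lower, 1 higher and 4 were not called, with a median log2 fold change of -0.51. SPRY4 (ENSBTAG00000008250), an ERK-induced inhibitor of receptor tyrosine kinase signaling, fell from 13.6, 7.22, 6.94 and 10.3 CPM to 4.29, 4.40, 3.49 and 3.01 CPM. The groups did not overlap, and the log2 fold change was -1.29 (SE 0.21, adjusted p = 0.00391). DUSP4, an ERK phosphatase, fell by 1.26 (adjusted p = 0.0148), ERRFI1, which inhibits EGFR, by 0.47 (adjusted p = 0.00903) and BTC, an EGFR ligand, by 0.92 (adjusted p = 0.00326). DUSP5 and the ETS factor ETV4 were each called at -0.89, but DUSP5 not without calf 3 or 4 (adjusted p = 0.0664 and 0.065) and ETV4 not without calf 1, 3 or 4 (0.061 to 0.102), so that 4 of the 11 genes were called lower without calf 3 and without calf 4. HBEGF, an EGFR ligand of the study's interest, was not called (0.48, adjusted p = 0.157), but was called higher without calf 2 (0.72, adjusted p = 0.0339), which made 2 rising genes of the list. ETV5 was not called (-0.51, adjusted p = 0.138), but was called lower without that calf (-0.81, adjusted p = 0.0122).

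PHLDA1 (ENSBTAG00000034985), which encodes a pleckstrin homology-like protein, was the ERK-linked gene that rose, from 15.2, 14.5, 13.5 and 12.96 CPM to 38.6, 41.0, 30.6 and 52.4 CPM. Its values without TGF-β2 differed little between calves, and its log2 fold change was 1.51 (SE 0.14, adjusted p = 0.000657). Of the Wnt pathway genes, 7 of 26 were tested, of which 4 rose and none fell. Beside WIF1 these were NKD1 (ENSBTAG00000012295), an intracellular Wnt antagonist, from 1.71, 1.21, 0.538 and 0.630 CPM to 8.23, 3.34, 3.08 and 5.22 CPM (log2 fold change 2.28, adjusted p = 0.00146), SFRP4 (1.76, adjusted p = 0.00484), a secreted antagonist and ROR2 (0.59, adjusted p = 0.00762), a receptor for noncanonical ligands. SFRP2, a further secreted antagonist, was not called, but DESeq2 called it lower. AXIN2 (0.37, adjusted p = 0.281) and TCF7 (0.62, adjusted p = 0.15) were not called either. Without calf 2, TCF7 was called higher (1.03, adjusted p = 0.00556).

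Genes of the cell cycle were higher with TGF-β2 in each calf. Of 20 listed, 9 were tested and 9 were called higher, with a median log2 fold change of 2.37. MKI67 (ENSBTAG00000002444), the proliferation marker Ki-67, rose from 24.2, 126, 17.4 and 51.8 CPM to 118, 276, 174 and 326 CPM. Calf 2 was the highest without TGF-β2 and had the smallest ratio, the groups overlapped for that reason, and the log2 fold change was 2.34 (SE 0.31, adjusted p = 0.00208). CCNB1 (ENSBTAG00000014239), the mitotic cyclin B1, rose from 3.52, 15.97, 2.90 and 7.69 CPM to 17.0, 43.6, 29.7 and 59.5 CPM, by 2.45 on the log2 scale (SE 0.29, adjusted p = 0.00132). TOP2A (2.45), CCNA2 (2.37), CCNB2 (2.49), BUB1 (2.20) and RRM2 (2.45), of DNA decatenation, cyclin, spindle checkpoint and nucleotide synthesis functions, rose by similar amounts. The replication genes PCNA (0.74) and TYMS (0.65) rose less.

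The median log2 ratio of these 9 genes was 2.24 in calf 1, 1.11 in calf 2, 3.29 in calf 3 and 2.78 in calf 4. CCND1, which encodes the G1 cyclin D1, was called at 0.58 (adjusted p = 0.0482), but not without calf 1 (log2 fold change 0.34, adjusted p = 0.17), 3 or 4 (0.0973 and 0.093).

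Of 9 tested genes of the IGF and growth hormone axis out of 14, 3 fell, none rose and 6 were not called, a share of 33.3% called that was below the 45.6% of all genes with a symbol. The binding proteins IGFBP4 (0.15), IGFBP6 (-0.03) and IGFBP7 (-0.46) were among those not called, although IGFBP7 was called lower without calf 3 (adjusted p = 0.0121). IGF1 was not called either (-1.40, adjusted p = 0.0924), but was called lower without calf 2 (adjusted p = 0.0228). GHR (ENSBTAG00000001335), the growth hormone receptor, had 79.8, 95.8, 118 and 86.0 CPM in condition A and 25.3, 27.9, 42.1 and 21.3 CPM in condition AB. All 4 calves fell by similar amounts, with a log2 fold change of -1.73 (SE 0.10, adjusted p = 0.000203). IGFBP3 (ENSBTAG00000003994), which binds and carries IGFs, fell from 149.7, 3.40, 74.6 and 28.6 CPM to 15.9, 0.584, 12.1 and 15.8 CPM, with calf 2 far below the rest in both conditions. Its log2 fold change was -2.29 (SE 0.37, adjusted p = 0.0041), or -2.90 without calf 4, which fell least. IGF1R, the IGF1 receptor, fell by 0.57 (adjusted p = 0.00562), with no overlap of the groups.

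Of the lipid and adipocyte genes, 5 of 12 were tested, of which 3 fell and 2 were not called, LPL (0.55), a lipoprotein lipase, and PLIN2 (-0.05), a lipid droplet protein. FABP4 (ENSBTAG00000037526), a fatty acid-binding protein, fell from 34.1, 18.8, 10.1 and 50.8 CPM to 4.79, 2.92, 1.92 and 7.56 CPM. The fall was similar in each calf, and the log2 fold change was -2.69 (SE 0.12, adjusted p = 6.14e-05). CD36, a fatty acid and thrombospondin receptor, fell by 2.11 (adjusted p = 0.00329). Without calf 2, LPL was called higher (adjusted p = 0.0159), as 1 rising gene of the list. The third was SCARA5 (ENSBTAG00000019636), a ferritin-binding scavenger receptor, which fell from 105, 1.44, 37.1 and 61.5 CPM to 1.22, 0.265, 1.64 and 0.921 CPM. Calf 2 was low in both conditions, so the groups overlapped, while the other calves fell to between 0.921 and 1.64 CPM. SCARA5 had the largest fall among the genes named, a log2 fold change of -5.51 (SE 0.41, adjusted p = 0.000295).

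Among the 15 genes named for the size of their fall, the log2 fold changes ran from -5.51 to -2.42. AOX1 (ENSBTAG00000009725), aldehyde oxidase, fell from 157, 43.2, 277 and 181 CPM to 12.1, 7.48, 30.9 and 9.83 CPM, with no overlap and a log2 fold change of -3.40 (SE 0.25, adjusted p = 0.000277). IGSF10 (ENSBTAG00000001728), a secreted immunoglobulin superfamily protein, fell from 199.5, 29.4, 54.9 and 85.2 CPM to 3.95, 3.56, 6.37 and 5.96 CPM, so that calves that differed widely without TGF-β2 had nearly the same level with it (log2 fold change -3.92, SE 0.41, adjusted p = 0.000907). NRP1 (ENSBTAG00000019866), the semaphorin and VEGF co-receptor neuropilin-1, fell from 399, 83.0, 342 and 269 CPM to 55.4, 19.7, 76.1 and 38.5 CPM. Its groups did not overlap, and its log2 fold change was -2.48 (SE 0.16, adjusted p = 0.000203).

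Others of the 15 were the water channel AQP5 (-3.57), the Norrin ligand NDP (-3.10), the tetraspanin TSPAN15 (-2.54), the actin-binding ABLIM3 (-2.83), the prostaglandin D synthase PTGDS (-2.42), PAPLN (-2.47), a papilin-type matrix protein, and PI15 (-2.55, or -3.18 without calf 3), a secreted protein with a CAP domain. The remaining ones were SEL1L3 (-4.22) and FAIM2 (-2.98), an inhibitor of Fas-mediated death. Of the genes that the study names for the knockdown, EPHA3, an ephrin receptor, fell by 1.98 (SE 0.14) and FAT4, an atypical cadherin, by 0.74 (SE 0.09) with TGF-β2, each in 4 of 4 calves. FAT1, a related cadherin, was not called (0.04, SE 0.15, adjusted p = 0.853).

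**Figure D4:**
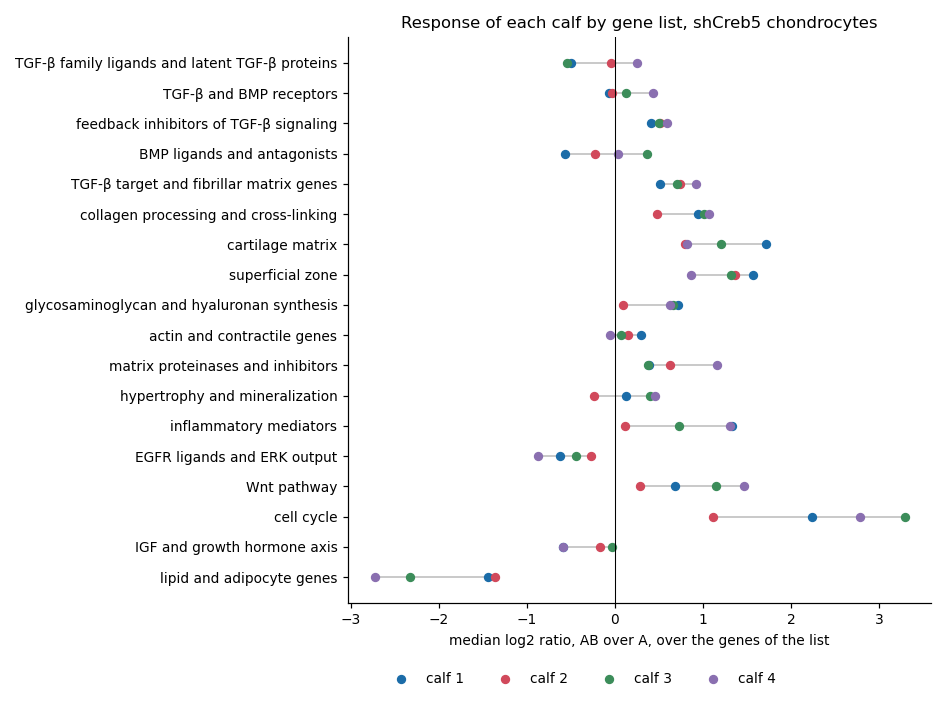
Median log2 ratio (AB over A) over the tested genes of each list, 1 point per calf, with a grey line from the lowest to the highest calf, for lists with at least 4 genes tested. For the cell cycle the calves run from 1.11 in calf 2 to 3.29 in calf 3, and for feedback inhibitors from 0.41 in calf 1 to 0.59 in calf 4.

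The size of the response differed between calves. Over all genes tested, the median size of the log2 ratio was 0.291 in calf 1, 0.245 in calf 2, 0.305 in calf 3 and 0.381 in calf 4. Among the called genes, calf 2 had the smallest ratio of the 4 calves in 49.8% and calf 4 in 6.39%, while calf 4 had the largest in 51.3% and calf 2 in 10.1%. These are descriptions of 1 pair of libraries per calf, which share their calf and their normalization.

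The same question, how TGF-β2 changes expression, was answered in shScramble cells by a fit of the 4 pairs of the same calves, in which 2556 of 12879 genes (19.8%) were called, 10.7% higher and 9.15% lower. Both fits tested 12638 genes, of which 2081 were called in both, all in the same direction, or 53.9% of the calls in shCreb5 and 82.5% of those in shScramble cells. The libraries were separate, but the calves were shared. The 15 rising genes and 15 falling genes were chosen by their size in the shCreb5 libraries. Their symbols came from lists sorted by the effect of the knockdown, so that the choice was not wholly independent of the shScramble libraries. In those libraries, 14 of the 15 rising genes and 15 of the 15 falling genes were called in the same direction. The exception was SCG2 (1.76, adjusted p = 0.0503).

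The log2 fold changes in shScramble and shCreb5 cells were 7.0 and 7.53 for DPT, 3.93 and 3.77 for TGFBI, -4.92 and -5.51 for SCARA5 and -3.13 and -2.43 for SPP1. Those of POSTN were 2.71 and 4.07. Because of how the genes were chosen, a larger size in shCreb5 cells is no result. Collagen processing genes were called higher in 8 of 12 with shScramble and 12 of 12 with shCreb5, with medians of 0.68 and 0.83, and the 9 cell cycle genes in 9 of 9 with each, with medians of 1.98 and 2.37. The fit of the shScramble libraries had a slightly wider spread, with a median standard error of 0.134 against 0.125 and a median size of change of 0.220 against 0.261 on the log2 scale.

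**Figure D5:**
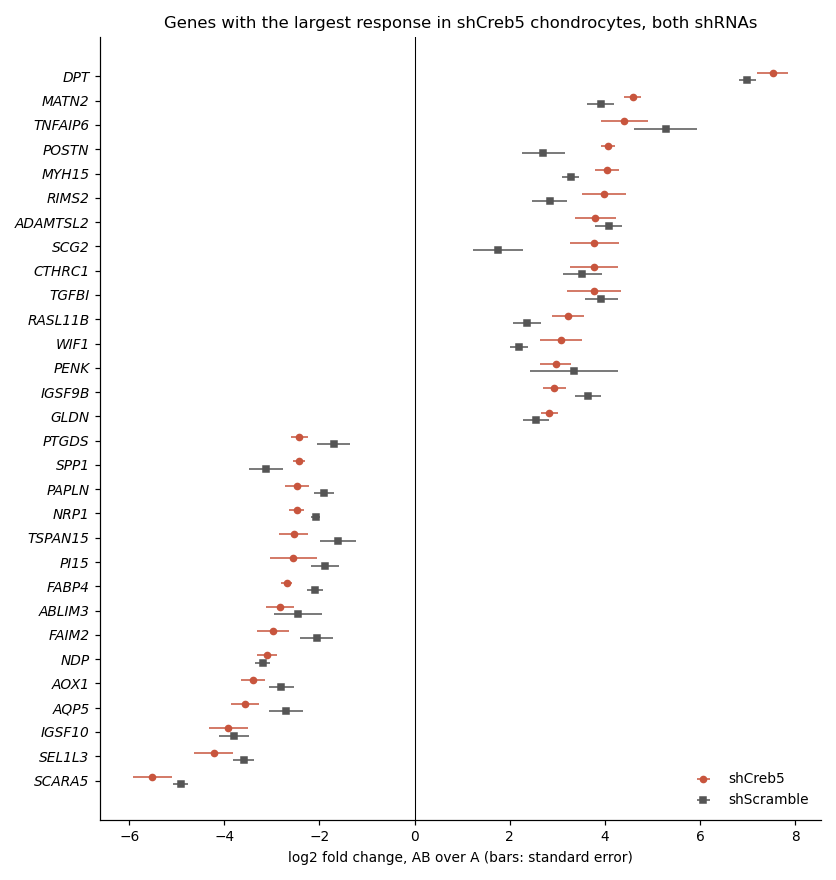
Log2 fold change (AB over A) with its standard error in shCreb5 (red circles) and shScramble (grey squares) chondrocytes, for the 15 rising and the 15 falling called genes of the largest change that have a symbol in shCreb5 cells. Both estimates lie on the same side of 0 for each of the 30 genes, from DPT at 7.53 and 7.0 to SCARA5 at -5.51 and -4.92.

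Whether TGF-β2 acted differently when CREB5 was reduced was tested directly, as the interaction of shRNA and condition in 1 fit of the 16 libraries with a term for each calf. By edgeR's quasi-likelihood test 0 of 13372 genes passed an adjusted p of 0.05, 571 (4.27%) had an unadjusted p under 0.05, and DESeq2 called 10 genes. Without calf 3, 170 genes had an unadjusted p under 0.05. The more numerous calls in shCreb5 cells are therefore no evidence of a different response of any gene, nor does a missed threshold show that the responses were alike.

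The genes with a symbol and the smallest p in this test were FAM13C, PTGER2 and NSMCE2, which changed more positively in shCreb5 cells, and PNKD, PPP1R37 and GPR153, which changed more negatively. Symbols came from lists sorted by the effect of the knockdown in these same libraries. The choice of these genes was thus not independent of the test. FAM13C rose by 1.66 in shCreb5 cells (adjusted p = 0.00123) and had a log2 fold change of 0.38 (adjusted p = 0.25) in shScramble cells, a difference of 1.29 (SE 0.30). PTGER2, the prostaglandin E2 receptor EP2, rose by 0.83 (adjusted p = 0.00749) against a change of -0.11 in shScramble cells, a difference of 0.97 (SE 0.23). For PNKD the log2 fold changes were -0.02 and 0.66, a difference of -0.69 (SE 0.16), for PPP1R37 0.10 and 0.59, and for GPR153 -0.43 and 0.63. CREB5 had a difference of -0.41 (SE 0.15), and POSTN, MYH15 and SCG2, the 3 of the 30 genes with an unadjusted p under 0.05 here, had differences of 1.40, 0.77 and 2.73. For NSMCE2, a SUMO ligase, the log2 fold changes were 0.33 and -0.25, a difference of 0.58 (SE 0.14). Each of these genes had an adjusted p of 0.961 for the difference by edgeR's quasi-likelihood test.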

How the data were processed

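RNA-seq libraries were quantified by the authors with Salmon in the bcbio workflow against UMD 3.1, and estimated counts were summed to genes with tximport. The deposited table held these estimated counts as whole numbers, and they were used without change. Columns of the authors' own comparisons were not used, and symbols were paired with gene identifiers from the lines at hand of the supplementary lists. Genes that passed filterByExpr were tested with edgeR 4.0.16 in R 4.3.3 (TMM scaling, glmQLFit and glmQLFTest, Benjamini-Hochberg adjustment) in the 8 shCreb5 libraries with the calf as a block. The difference between the responses was the interaction in a fit of 16 libraries. Alternatives used DESeq2 1.42.0, limma 3.58.1 (voom), other scalings and filters, no block, and each calf left out. The fits were tested on simulated data.

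The calf numbers in the labels name the animal. Deviations from the group means of same-numbered libraries correlated at 0.571 to 0.793 over 12769 genes, and those of different calves at -0.528 to 0.161. No library was a copy of another, with a chi-square per degree of freedom of 81.3 or more over 12 pairs within groups.

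Genes named were the 15 with the largest change in each direction among called genes with a symbol, the same direction in every calf and a mean of at least 10 CPM in the higher group, the members of the lists, CREB5, PRG4 and the genes the study names for the knockdown, and the 3 of smallest p in each direction in the test of the difference. The members and lists were chosen with earlier results of these data known. Depth, 16736143 to 21853634 counts per library, limits low genes. Some genes are not reported here.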

Additional observations from a re-analysis of the deposited data

Results flagged for a closer look

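For part of the genes described, the values of the 4 calves were searched for a distant calf. Its gap to the nearest of the others had to exceed Dixon's 95% critical value as a share of the whole range. The values searched were those in condition A, in condition AB and in the log2 ratio. Of 266 such sets 20 had one, where chance gives about 13.3. Genes outside these sets can also have a distant calf. The log2 ratio of SFRP2, for example, was -1.99 in calf 1 and -0.41 to -0.35 in the other calves.

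In the log2 ratio of AB over A, calf 2 stood apart in 7 sets. Its ratio was 0.88 for COL3A1, 0.29 for SERPINH1, 0.42 for MGP, -0.18 for HAPLN1 and 0.04 for TGFBR1, each below the other calves, and -1.11 for TGFB3, below the other 3 at -0.55 to -0.52. For DUSP5 it was -0.03, where the other calves had -1.12 to -1.04. Calf 4 had the more extreme ratio for DUSP4 (-2.05), ITGA5 (1.66), SFRP4 (2.20) and SOD2 (-1.17), and the smallest for CHRD (1.45). Calf 1 had the smallest ratio for ADAMTS6 (1.58, against 2.18 to 2.25), and calf 3 the least negative for VCAM1 (-0.57).

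In the levels, calf 2 was low for ADAMTS6 without TGF-β2 (1.63 CPM) and for IGFBP3 with it (0.584 CPM), and high for HAS2 without it (28.4 CPM against 2.10 to 3.29 CPM) and for SCG2 with it (1188 CPM against 17.9 to 27.8 CPM). Calf 3 was high for LOX without TGF-β2 (739 CPM) and calf 1 for COL5A1 with it (1621 CPM).

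NSMCE2 was higher with TGF-β2 in 4 of 4 calves in shCreb5 cells and lower in 4 of 4 in shScramble cells, a difference of 0.58 on the log2 scale. The test of that difference by edgeR gave an adjusted p of 0.961. Neither response was called by edgeR (adjusted p = 0.0502 in shCreb5 and 0.214 in shScramble cells). NSMCE2 was named for its small p in the test of the difference, so opposite directions are no separate result.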

How the results depend on the processing

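Without the replicate block, which pairs the libraries by calf, 114 genes were called higher and 80 lower, and with a log2 fold change of at least 1 the counts were 89 and 58. With 1 calf left out, 1040 to 1967 genes were called higher and 922 to 1862 lower, and 413 to 654 and 322 to 572 with a log2 fold change of at least 1, the last lowest without calf 4. Both counts kept within 1.5 times their value under DESeq2 (2000 higher, 1735 lower), limma-voom (2101 and 1901), RLE scaling (2036 and 1837), upper quartile scaling (1867 and 1972), no filter (2099 and 1899), at least 10 counts in every library (1844 and 1786) and 1 fit of 16 libraries (1952 and 1795). Upper quartile scaling moved the balance to more falling genes. DESeq2 called 10 genes in the difference between the responses, where edgeR called 0.

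Of 160 genes examined, 157 kept their side of the threshold under DESeq2, 147 in the fit of 16 libraries, 37 without the block, and 143 to 152 with 1 calf left out. In the fit of 16 libraries the lost calls were those of TGFBR1, TGFB2, LTBP1, SKI, CHRDL1, MATN1, TPM1, IL6, PTGES, NOS2, CCND1 and KRT18. SKI and CHRDL1 were also lost under DESeq2, IL6 and CCND1 under limma-voom, and TIMP2 and ANKH under RLE scaling. PNKD (-0.02, or -0.06 to 0.02 with 1 calf left out), which was not called, changed sign without calf 4. With 4 pairs, small changes depend on single calves, and low genes are limited by depth.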

Other observations

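Families of genes were also gathered by symbol after their values had been seen, so that their counts are descriptions and carry no test. These families include genes already described above, among them BUB1, NRP1 and EPHA3. Their counts are to be read beside the 45.6% of genes with a symbol that were called. Most tested genes of the secretory route rose: 7 of 8 genes with a SEC symbol, among them members of the COPII coat, were called higher. None was called lower, and the median log2 fold change was 0.50. SEC63, of the translocon, was not called (-0.02, adjusted p = 0.885). SEC22B and SEC24A were not called without calf 3 (adjusted p = 0.0513 and 0.133), nor SEC24A without calf 4 (0.118). SEC23A rose by 0.58 (adjusted p = 0.0104), SEC13 by 0.56 and SEC31A by 0.46. Of 13 chaperones and folding enzymes of the endoplasmic reticulum, 11 were called higher, with a median of 0.79, among them HSPA5 (0.92), the chaperone BiP, HSP90B1 (0.79), MANF (1.11) and UGGT2 (1.28). HSPA13 (0.32) was not called without calf 1 or 4 (adjusted p = 0.1 and 0.0957). In shScramble cells 5 of the SEC genes and 4 of the chaperones were called higher. The difference between the responses was not called for any of them.

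Of 7 Eph receptors and ephrins, 6 were called lower and none higher, with a median of -1.56, including the ligands EFNB1 (-0.88) and EFNB2 (-1.56). EPHA5 (-1.68) and EFNA3 (-1.10) were not called without calf 1 (adjusted p = 0.0506 and 0.0647), nor EPHA7 (-1.62) without calf 3 (0.0505). Semaphorins, plexins and neuropilins were mixed, with 7 called lower, 3 higher and 3 not called of 13, among them PLXND1 (-1.38) and SEMA4B (-1.67) that fell and SEMA3C (0.94) that rose. The call of SEMA3D (0.55) was lost without calf 1, 2 or 3 (adjusted p from 0.0587 to 0.109). Those of SEMA3A (-0.83) and SEMA4D (-0.94) were lost without calf 1 or 4, and that of SEMA3A also without calf 3 (0.0543 to 0.152). SEMA6A was called lower without calf 3 (0.0308). Complement genes were called lower in 6 of 7, with a median of -1.03, including the proteases C1S (-1.50) and C1R (-1.70) and the regulators CD55 (-2.01) and SERPING1 (-0.87). CFB (-0.77) was not called without calf 1 or 4 (adjusted p = 0.0551 and 0.1055). Kinetochore and centromere genes were called higher in 12 of 13, with a median of 2.20, among them NDC80 (2.52) and SPDL1 (2.69). Laminin chains moved both ways, with 2 called higher and 4 lower of 8: LAMB3 rose by 1.41, while LAMB1 and LAMA2 fell by 0.83 and 0.81 on the log2 scale. LAMC1 (-0.34) was not called without calf 1 or 4 (adjusted p = 0.0619 and 0.071). Of 4 integrin genes, 2 were called higher and 1 lower. ITGA5, the fibronectin receptor subunit, rose from 205, 122, 239.6 and 207 CPM to 404, 240.1, 458 and 652 CPM in calves 1 to 4, with no overlap and a log2 fold change of 1.14 (SE 0.14, adjusted p = 0.00142).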
